A study of Saccharomyces cerevisiae with 4 samples.

Results

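The genes described here were the A and B copies of 28 duplicated genes for proteins of the large ribosomal subunit of budding yeast, from RPL1 to RPL36, 56 genes of 5798 in the deposited table. They were taken from a named list of paralogs and not by measured values, though with earlier results of these data known. All 56 were found in the table. Duplicated RPL genes numbered 37 and above were left out of the list and serve below as a comparison.

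Small RNA of 10 to 40 nucleotides was sequenced from 4 Saccharomyces cerevisiae strains, with 1 library for each. The WT library came from strain YAM1730, labelled wild-type. The RNAi library came from YAM1725, which carries DCR1 and AGO1, the Dicer and Argonaute genes of a reconstituted RNA interference pathway. The xrn1 library came from YAM2271, which lacks the exonuclease gene XRN1, and the xrn1 RNAi library from YAM1982, which lacks XRN1 and carries DCR1 and AGO1. Replicates were not part of the data used here, so each difference is between 2 libraries, and "higher", "lower", "fell" and "shifted" describe those libraries only. Intervals are 95% intervals and cover counting error alone. The labels describe the strains by genotype, and do not state what else they carry.

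Budding yeast keeps many ribosomal protein genes in 2 copies left from an ancient duplication of its genome, and the copies of a pair encode nearly or wholly identical proteins. The genes are transcribed at high rates under Rap1, Fhl1, Ifh1 and Sfp1, and many carry an intron, which is rare among yeast genes. Budding yeast itself lacks Dicer and Argonaute. Dicer cuts double-stranded RNA into short duplexes that Argonaute binds, while Xrn1 degrades uncapped RNA from its 5′ end in the cytoplasm. Short fragments of a messenger RNA can therefore enter a small RNA library without any Dicer, and the labels give no strand for the reads.

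The copies of a pair can be told apart only where their sequences differ, so their sequences come first. Of the 28 pairs, 26 had copies of equal coding length and 8 encoded identical proteins in the RefSeq annotation of assembly R64. Introns were annotated in both copies of 20 pairs, 40 genes, and in neither copy of the other 16 genes. Nucleotide identity of the reading frames ran from 78.9% for RPL22, with 78 differences, to 99.4% for RPL1, with 4. Cut into overlapping 20-base words, 91.3% of the RPL1 frame was shared between the copies, 88.7% of RPL35, 86.7% of RPL4, 72.7% of RPL11 and 70.1% of RPL7, against 1.15% of RPL22. The longest run without a difference was 422 bases in RPL4, 326 in RPL11, 315 in RPL1 and 302 in RPL35, but 23 in RPL22. A small RNA of the selected length from such a run has the same sequence whichever copy it came from. The labels do not say how reads that match more than 1 place were treated, so values of RPL1, RPL4 and RPL35 are uncertain as measures of a single copy.

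The contrast is shown by 60-base windows of 4 pairs, chosen to span near-identical and diverged copies. They are written 5′ to 3′ on the coding strand from RefSeq assembly R64, with capitals at the bases that differ between the copies. The RPL1 windows lie at chrXVI:135790-135849 on the plus strand for RPL1A and chrVII:254641-254700 on the plus strand for RPL1B, start with the start codon, and hold 2 differences. The RPL35 windows lie in the coding exon at chrIV:118158-118217 and chrIV:218008-218067, both on the plus strand, with 2 differences. The RPL15 windows lie at chrXII:201977-202036 and chrXIII:509735-509794, both on the minus strand, with 10 differences. The RPL22 windows lie in the coding exon at chrXII:263691-263750 on the plus strand and chrVI:64444-64503 on the minus strand, with 19 differences. Which build the authors mapped to is not given by the labels.
RPL1A: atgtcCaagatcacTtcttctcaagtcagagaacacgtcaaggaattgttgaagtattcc
RPL1B: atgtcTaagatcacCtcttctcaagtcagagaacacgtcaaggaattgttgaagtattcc
RPL35A: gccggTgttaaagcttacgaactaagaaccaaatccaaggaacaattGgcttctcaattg
RPL35B: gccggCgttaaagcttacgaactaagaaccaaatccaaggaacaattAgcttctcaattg
RPL15A: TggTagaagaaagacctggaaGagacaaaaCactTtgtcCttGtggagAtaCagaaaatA
RPL15B: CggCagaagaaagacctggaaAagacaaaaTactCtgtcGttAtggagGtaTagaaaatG
RPL22A: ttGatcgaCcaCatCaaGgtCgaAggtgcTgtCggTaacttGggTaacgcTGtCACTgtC
RPL22B: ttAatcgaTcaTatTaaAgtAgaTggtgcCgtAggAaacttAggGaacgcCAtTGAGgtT

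The libraries held 627607 reads over listed genes in WT and 1801407 in RNAi, and 2825322 in xrn1 and 7686801 in xrn1 RNAi. The deposited value equals the read count in WT, and 1 read is worth 0.318 in RNAi and 0.330 in xrn1, but 0.0762 in xrn1 RNAi. XRN1 itself had a value of 148 in WT, 12.4 in RNAi, 0.991 in xrn1, from 3 reads, and 0 in xrn1 RNAi, where 3 reads, taken as the one-sided limit for a count of 0, are worth 0.229. These values match the labels of the deletion strains.

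The 56 genes together were a larger part of the libraries without DCR1 and AGO1. They took 0.742% of the WT reads (0.721 to 0.763% by Clopper-Pearson) and 1.33% in xrn1 (1.32 to 1.35%). In RNAi they took 0.0618% (0.0582 to 0.0655%) and in xrn1 RNAi 0.109% (0.107 to 0.111%). The summed value of the 56 genes was 13.2-fold lower in RNAi than in WT and 19.5-fold lower in xrn1 RNAi than in xrn1, and with size factors 3.48-fold and 6.33-fold lower. A share of a library falls both when fewer fragments come from these genes and when more come from others, and these cannot be told apart here.

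By single gene, the median deposited value was 63.5 in WT and 3.65 in RNAi, and 176 in xrn1 and 4.88 in xrn1 RNAi. Over all genes the medians were 48, 11.1, 71.0 and 19.1 in the same order. By their medians the RPL copies thus lay above the middle gene in the libraries without DCR1 and AGO1 and below it in those with them. The range over the copies was 1 to 449 in WT, 0 to 33.7 in RNAi, 1.98 to 826 in xrn1 and 0.229 to 134 in xrn1 RNAi. Counts of 0 were found for RPL1A and RPL1B in RNAi, where 3 reads, the same one-sided limit, are worth 0.953.

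**Figure D1:**
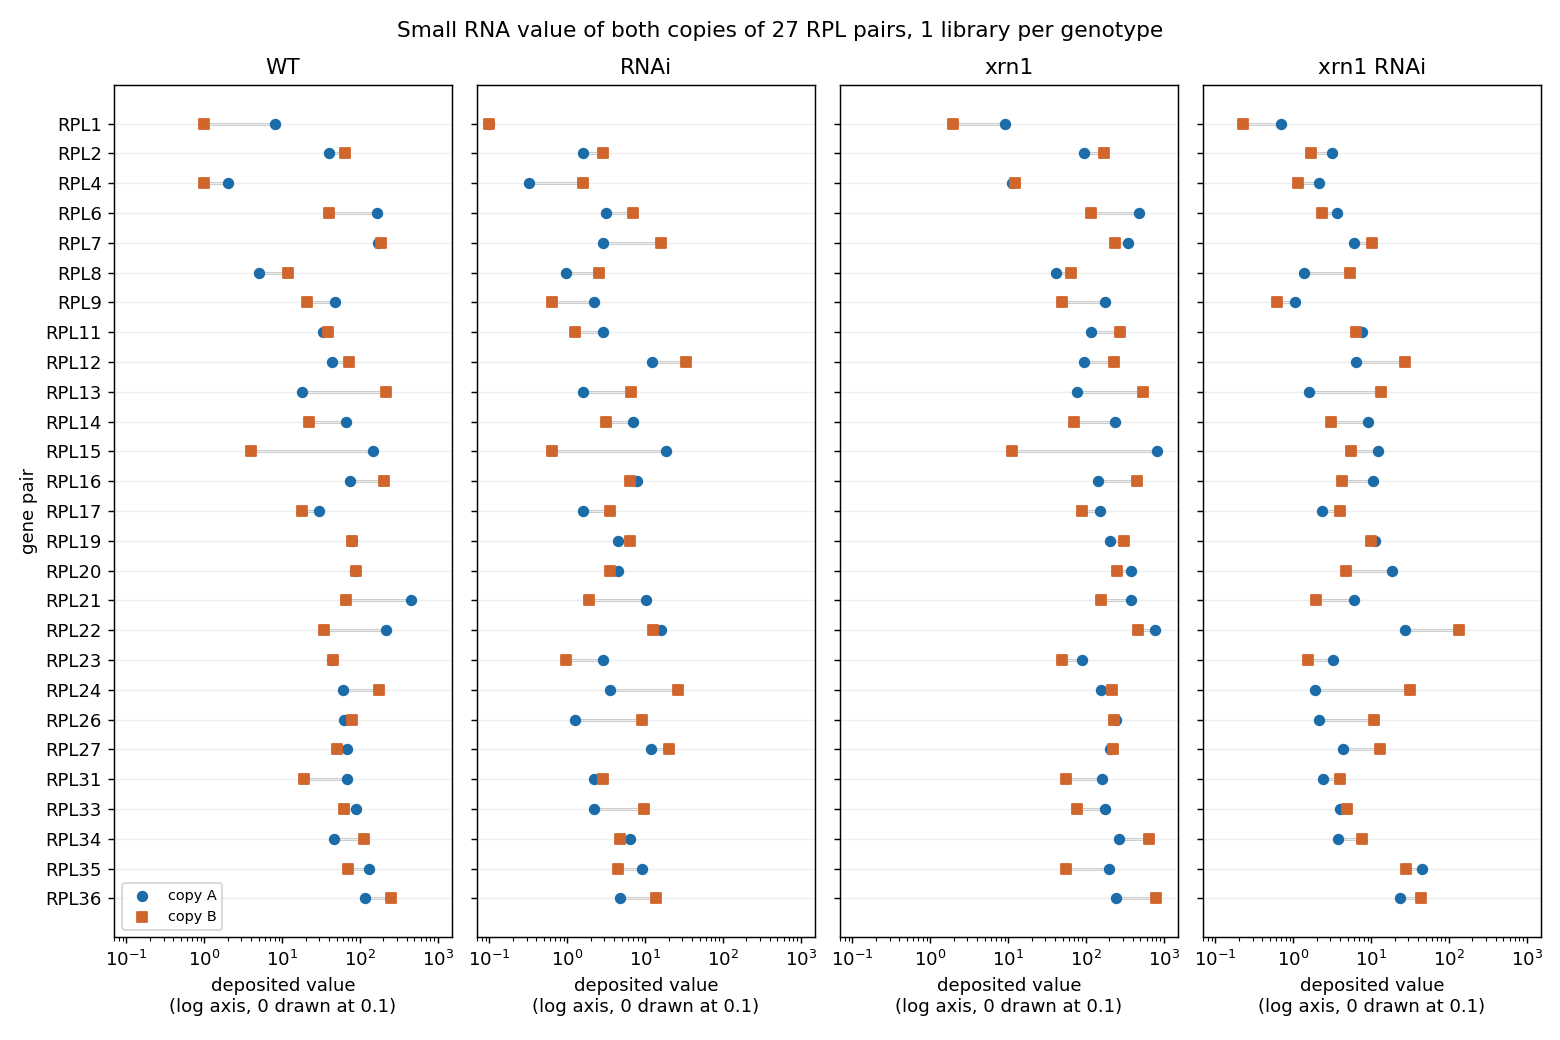
Deposited small RNA value (x axis, log scale, 0 drawn at 0.1, not divided by length) of copy A (circles) and copy B (squares) of each of 27 RPL pairs (y axis), in 1 panel per library. The copies lie between 1 and 449 in WT and between 1.98 and 826 in xrn1, and far lower in RNAi and xrn1 RNAi, where RPL22B at 134 in xrn1 RNAi stands highest.

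Levels of different genes were compared per kilobase of coding length. In WT the highest copies per kilobase were RPL21A (YBR191W) at 929.6, RPL36B (YPL249C-A) at 822 and RPL22A (YLR061W) at 596. In xrn1 they were RPL36B at 2606, RPL22A at 2113, RPL34B (YIL052C) at 1741, RPL15A (YLR029C) at 1343 and RPL22B (YFL034C-A) at 1276. RPL36 and RPL34 encode small proteins of the large subunit, and Rpl22 is a subunit protein without which yeast can still grow. In RNAi the order per kilobase was led by RPL12B (YDR418W) at 67.6 and RPL24B (YGR148C) at 56.3, and in xrn1 RNAi by RPL22B at 364, RPL36B at 145 and RPL35A (YDL191W) at 124. Counting intervals of the values did not overlap between RPL22B (128 to 141) and the next values in xrn1 RNAi, RPL35A (41.3 to 48.7) and RPL36B (40.3 to 47.6), while those of RPL35A and RPL36B overlapped each other. RPL36B was the only copy among the 5 highest per kilobase in every library.

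At the other end, RPL1B and RPL4B were among the lowest 5 per kilobase in WT, xrn1 and xrn1 RNAi. Rpl1 forms the mobile stalk beside the site where transfer RNA leaves, and Rpl4 reaches into the tunnel through which new protein leaves. RPL1A (YPL220W) had values of 8 in WT and 0 in RNAi, and 9.25 in xrn1 and 0.686 in xrn1 RNAi. RPL1B (YGL135W) had 1, 0, 1.98 and 0.229. RPL4A (YBR031W) had 2, 0.318, 11.2 and 2.13, and RPL4B (YDR012W) had 1, 1.59, 12.2 and 1.14. The copies of both pairs are nearly identical, as the RPL1 windows printed above show. RPL35, nearly as alike, did not share their low level: RPL35A had 130, 9.21, 198 and 44.9, and RPL35B 71, 4.45, 55.5 and 27.9.

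Level and uniqueness were set side by side for all 56 genes. The 6 genes with under 20% of their 20-base words found once in the genome had a median of 7.03 per kilobase in WT and 12.7 in xrn1. The 10 genes with 20 to 60% had medians of 79.0 and 271, and the 40 genes with 60% or more had 138 and 462. Across the 56 genes the correlation of the unique share with the log value per kilobase was r = 0.43 in WT (Spearman's rho 0.31) and 0.48 in RNAi (0.47), and 0.54 in xrn1 (0.45) and 0.27 in xrn1 RNAi (0.31). Genes of a pair share their sequence and genes of a library share its depth, so these are descriptions. The part that sequence sharing had in the levels was not tested.

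**Figure D2:**
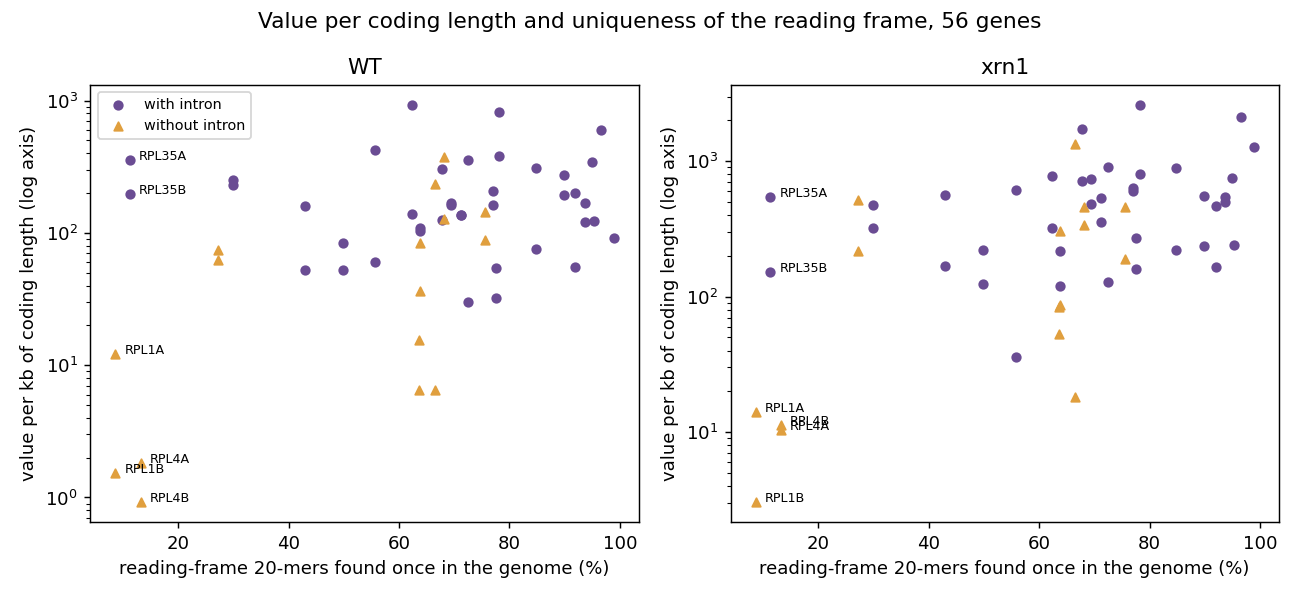
Value per kilobase of coding length (y axis, log scale) against the share of 20-base words of the reading frame found once in the genome (x axis, percent) for the 56 RPL copies in WT and xrn1, with circles for genes with an intron and triangles for those without. RPL1 and RPL4 copies lie lowest at the left, RPL35 copies with a like unique share of 11.3% lie at 196 and 358 per kilobase in WT.

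Genes with an intron had a higher median per kilobase than those without in each library: 163 against 49.7 in WT, 10.1 against 2.86 in RNAi, 493 against 138 in xrn1 and 12 against 5.55 in xrn1 RNAi. The RPL1 and RPL4 copies, all without introns, belong to the lower group. RPL7A and RPL7B each host a small nucleolar RNA in an intron, SNR39 and SNR59. Whether reads from introns were counted is not given by the labels.

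The first question was how these genes differed once DCR1 and AGO1 were present, and it can be asked in each XRN1 background. Differences are of log2(value + 3.18), with a pseudocount at the 10th percentile of values above 0, and a gene was counted where 1 of the 2 libraries reached it. Adding the pseudocount understates the change of low values. Of the 56 genes, 55 had a lower value in RNAi than in WT, and for 52 of them the interval of the ratio lay apart from 1. All 56 were lower in xrn1 RNAi than in xrn1, each with an interval apart from 1. With libraries scaled by size factors, which moves the median difference of all genes by 1.92 and 1.62 on the log2 scale, 51 of 56 and 54 of 56 were lower. These plain counts were not taken over all genes, whose median differences of -1.57 and -1.46 were also below 0.

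At 2-fold or more, 51 of 53 counted copies were lower in RNAi than in WT and 0 were higher, beside 60.3% of all counted genes lower and 15.2% higher. The median log2 difference was -3.09, against -1.57 for all genes, a gap of -1.52. Through WT alone 20 of the 53 were counted, so that these had to be lower, and the count is a description. With XRN1 deleted, in xrn1 RNAi over xrn1, 53 of 55 were lower and 0 higher, beside 58.1% and 15.3% of all genes. The median was -4.05 against -1.46, a gap of -2.59, and 18 of the 55 were counted through xrn1 alone.

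Copies are ranked here by the difference of log2(value + pseudocount), while each fold is a plain ratio, so the order by fold can differ for copies of few reads. Among the copies that differed most in RNAi over WT were RPL21A and RPL7A. RPL21A fell from 449 in WT to 10.2 in RNAi, 44.2-fold (30.8 to 65.4), or a log2 difference of -5.08, which was -3.44 with size factors. RPL7A, for a protein bound early in subunit assembly, fell from 170 to 2.86, 59.5-fold (30.6 to 132). The least different on that scale were RPL15B, at 4 and 0.635, RPL8A, at 5 and 0.953, and RPL12B. RPL12B, for a protein at the base of the stalk that recruits translation factors, had 72 in WT and 33.7 in RNAi, 2.14-fold lower (1.56 to 2.91), but with size factors its log2 difference was 0.80, in the opposite direction. RPL15B and RPL8A had under 6 reads in each library, which limits what their ratios can show. By plain ratio RPL27B, at 2.50-fold, RPL22B, at 2.68-fold, and RPL12A, at 3.55-fold, differed less than RPL15B and RPL8A.

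In xrn1 RNAi over xrn1 the largest falls on that scale were of RPL6A, RPL16B and RPL34B. RPL6A had 475 in xrn1 and 3.66 in xrn1 RNAi, 130-fold lower (97.4 to 177), or a log2 difference of -6.13, which was -4.94 with size factors. RPL16B had 448 and 4.27, 105-fold lower (80.4 to 140), and RPL34B 637 and 7.55, 84.4-fold lower (69.0 to 104). By plain ratio RPL9A fell furthest, 163-fold, from 14 reads in xrn1 RNAi. The smallest on the log2 scale were RPL15B, from 11.2 to 5.49 or 2.05-fold (1.32 to 3.12), RPL35B, from 55.5 to 27.9 or 1.99-fold (1.65 to 2.39), and RPL4A, from 11.2 to 2.13 or 5.26-fold (3.10 to 9.01). By plain ratio RPL22B, at 3.51-fold, and RPL35A, at 4.40-fold, fell less than RPL4A. With size factors RPL15B and RPL35B had log2 differences of 0.45 and 0.59, opposite in direction. RPL15A, the partner of RPL15B, fell 66.5-fold.

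The comparisons RNAi over WT and xrn1 RNAi over xrn1 share no library. Nearly every copy was lower in each, many of them counted only through the library where they were high, so that agreement in sign was close to fixed and nothing is read from it. Across the 53 copies counted in both, r was 0.57 and rho 0.58. The plot of differences shows how far each set lay below the median of all genes.

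**Figure D3:**
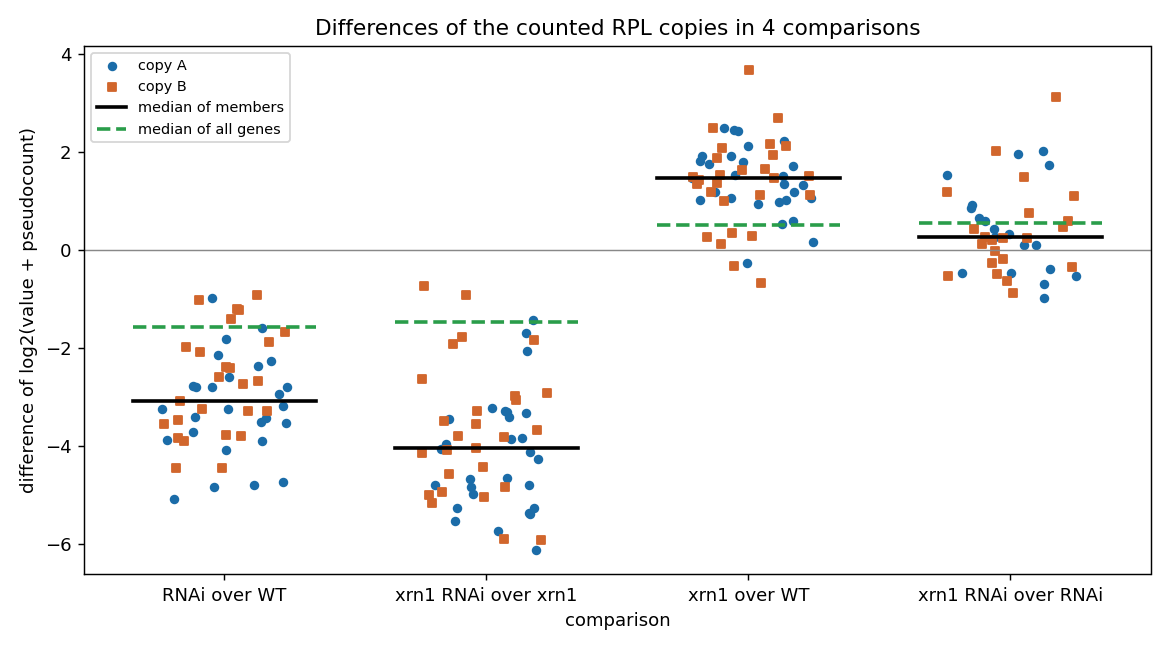
Difference of log2(value + pseudocount) (y axis) of each counted RPL copy in 4 comparisons (x axis), with circles for copy A, squares for copy B, a solid bar for the median of these copies and a dashed bar for the median of all counted genes. The copies' median is -3.09 in RNAi over WT and -4.05 in xrn1 RNAi over xrn1, 1.47 in xrn1 over WT and 0.26 in xrn1 RNAi over RNAi.

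The reads of all 4 libraries were also fitted together across all genes with edgeR's quasi-likelihood test, in an additive model in which the 2 backgrounds stand in as replicates of each effect, with 1 residual degree of freedom. For the effect of DCR1 and AGO1, 37 of 53 RPL copies tested were lower at an adjusted p below 0.05 and 0 were higher, beside 19.2% of all genes lower and 20.8% higher. Without adjustment 42 passed, beside 2669 of 5429 genes. The median log2 fold change of the copies was -2.64, against -0.10 for all genes tested. Among the lowest were RPL6A at -4.75 and RPL26A at -4.70, each with an adjusted p of 7.43e-05 from edgeR, and RPL9A at -4.36 with 0.0002685. The protein of RPL26 sits beside the exit tunnel. Near 0 were RPL22B at 0.03 (edgeR adjusted p = 0.978) and RPL15B at 0.07 (0.965), while RPL12B at -0.43 (0.692), RPL35B at -0.73 (0.493) and RPL24B at -1.08 (0.255) did not pass either. Their partners RPL22A at -2.63 (0.0128), RPL15A at -2.87 (0.0133) and RPL24A at -3.65 (0.000808) did pass, which does not by itself show that the copies of a pair differed.

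The second question was how the genes differed when XRN1 was deleted. Of the 56 copies, 53 had a higher value in xrn1 than in WT, 49 of them with an interval apart from 1. With size factors, which move the median difference of all genes by -0.46, 48 of 56 were higher. These plain counts were not taken over all genes, whose median difference was also above 0. At 2-fold or more 43 of 55 counted copies were higher and 0 lower, beside 33.2% of all counted genes higher and 9.9% lower. The median log2 difference was 1.47 against 0.51 for all genes. The count of 43 depended on the scale: it was 28 with size factors and 22 with libraries brought to equal sums.

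RPL22B stood highest, with 34 in WT and 471 in xrn1, 13.8-fold more (9.86 to 20.1). RPL22B is the copy whose intron is bound by the Rpl22 protein, which limits its own splicing. RPL11B, for a protein that joins the ribosome with the 5S ribosomal RNA, had 39 and 270.3, 6.93-fold more (5.03 to 9.82), and RPL34B 111 and 637, 5.74-fold more (4.74 to 7.01). The lowest differences were of RPL18B, at 34 and 20.2 or 1.69-fold less (1.08 to 2.61), RPL35B, at 71 and 55.5 or 1.28-fold less (0.955 to 1.70), and RPL21A, at 449 and 374 or 1.2-fold less (1.07 to 1.34). RPL21A, the highest copy per kilobase in WT, was therefore among the 3 copies without a higher value in xrn1.

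In the strains with DCR1 and AGO1 the same deletion went with smaller and mixed differences. In xrn1 RNAi over RNAi, 38 of 56 copies had a higher value and 18 a lower one, with intervals apart from 1 for 16 and 8. With size factors, which move the median of all genes by -0.76, this turned to 19 higher and 37 lower. These plain counts were not taken over all genes either. Of the 41 counted copies 9 were 2-fold or more higher and 0 lower on the log2(value + pseudocount) scale, beside 33.1% and 11.8% of all genes, and the median was 0.26 against 0.54 for all genes. The 0 depended on the scale: 2 were lower with a pseudocount 10 times lower and 14 with size factors. Through xrn1 RNAi alone 8 were counted, and through RNAi alone 4.

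RPL22B was again highest, with 12.7 in RNAi and 134 in xrn1 RNAi, 10.6-fold more (7.73 to 14.9). RPL35B had 4.45 and 27.9, 6.27-fold more (3.69 to 11.6). The lowest were RPL27A, at 11.8 and 4.34 or 2.70-fold less (1.74 to 4.16), RPL6B, at 6.99 and 2.36 or 2.96-fold less (1.63 to 5.27), and RPL12A, at 12.4 and 6.48 or 1.91-fold less (1.27 to 2.82). RPL35B, for a protein at the exit tunnel, thus had a ratio with an interval around 1 in xrn1 over WT and a higher value in xrn1 RNAi than in RNAi.

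These comparisons of the deletion share no library either. Of 41 copies counted in both, 28 had the same sign and 6 were 2-fold or more higher in both, with r of 0.15 and rho of 0.08. Of all counted genes 33.2% were 2-fold or more higher in xrn1 over WT and 33.1% in xrn1 RNAi over RNAi. The share higher in both was not taken over all genes, so nothing is read from the 6. In the additive edgeR fit 0 of 53 copies passed an adjusted p of 0.05 for XRN1 deletion, beside 0.184% of all genes higher and 0.239% lower. Without adjustment 3 passed, beside 728 of 5429 genes. RPL22B came closest, with a log2 fold change of 3.13 and an adjusted p of 0.0549. It was called by DESeq2, with 0.0028, and by edgeR without a filter on low counts, with 0.0491. Over all genes DESeq2 called 186 of 5560, and edgeR without that filter 45 of 5670.

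The ratio of the 2 copies of a pair within a library does not depend on how libraries are scaled, and it was taken per coding length for pairs with 10 or more reads. The copies lay 2-fold or more apart in 14 of 26 pairs in WT, 16 of 25 in RNAi, 16 of 28 in xrn1 and 16 of 28 in xrn1 RNAi. Among other duplicated ribosomal protein genes this held for 51.7%, 56%, 44.8% and 51.7% of pairs in the same order, so that the 28 pairs were near that background. Neither copy led throughout: A was higher in 12 pairs and B in 13 in WT, and in xrn1 A in 16 and B in 12.

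In 11 pairs the same copy was higher in all 4 libraries, here without a minimum of reads. Copy A was higher in RPL9, RPL14, RPL15, RPL21 and RPL35 among others, and B in RPL8, RPL12, RPL13, RPL24 and RPL36. RPL9 had only 9 reads over both copies in RNAi. The interval lay apart from 1 in all 4 libraries for 7 of the 11 pairs, namely RPL12, RPL13, RPL15, RPL21, RPL24, RPL35 and RPL36. These intervals do not cover how shared reads were assigned, and the RPL35 copies share 88.7% of their 20-base words. In 4, RPL13, RPL14, RPL15 and RPL21, the copies were 2-fold or more apart in every library. The remaining 17 pairs, called mixed here, did not have the same copy higher in all 4 libraries. Among them RPL1 had 0 reads in RNAi and A higher in the other libraries, and RPL19 was tied at 78 and 78 in WT.

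RPL15 had the largest mean ratio, with a mean log2 of A over B of 4.35. Rpl15 is a core protein of the large subunit, bound early to the ribosomal RNA. RPL15A had 145 in WT and 18.4 in RNAi, and 826 in xrn1 and 12.4 in xrn1 RNAi, and RPL15B 4, 0.635, 11.2 and 5.49. Copy A was 36.2-fold higher (13.9 to 135) in WT and 29.0-fold (7.67 to 245) in RNAi, and 73.5-fold (52.5 to 106) in xrn1 and 2.26-fold (1.71 to 3.03) in xrn1 RNAi. The last interval did not overlap the other 3. The 10 differing bases of the windows above leave no stretch of 20 identical bases there, and 66.4% of the frame's 20-base words were unique in each copy.

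RPL13 had the next largest mean ratio, with B higher and a mean log2 of -2.89. RPL13A had 18, 1.59, 77.0 and 1.60 in WT, RNAi, xrn1 and xrn1 RNAi, and RPL13B 213, 6.67, 548 and 13.5. Copy B was 11.8-fold higher in WT and 4.20-fold in RNAi, and 7.12-fold in xrn1 and 8.43-fold in xrn1 RNAi. RPL21 had a mean log2 of 2.01 with A higher: RPL21A had 449, 10.2, 374 and 6.02, and RPL21B 67, 1.91, 155 and 1.98. Its ratio ran from 2.41 in xrn1 to 6.70 in WT.

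RPL24 favoured copy B throughout but by very different amounts. Rpl24 forms a bridge to the small subunit. RPL24A had 60, 3.49, 158 and 1.91, and RPL24B 175, 26.4, 215 and 31.9. Copy B was 2.92-fold higher in WT and 7.55-fold in RNAi, and 1.36-fold (1.21 to 1.53) in xrn1 and 16.8-fold (11.2 to 26.2) in xrn1 RNAi, so that B led more in the libraries with DCR1 and AGO1.

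Pairs with a mean ratio nearest to 1 were RPL11, RPL17 and RPL4, with mean log2 ratios of -0.01, -0.10 and -0.14. These means hide shifts: RPL11B was 2.35-fold higher (2.07 to 2.67) in xrn1, with 115 for A and 270.3 for B, and RPL11A was 1.2-fold higher (0.891 to 1.63) in xrn1 RNAi, with 7.70 and 6.40. For RPL17, whose protein lines the exit tunnel, A led in WT at 30 and 18 and in xrn1 at 152 and 89.2, and B led in RNAi at 1.59 and 3.49 and in xrn1 RNAi at 2.36 and 4.04. The interval of the fold spanned 1 in WT (0.899 to 3.17) and in RNAi (0.705 to 8.08). It lay apart from 1 in xrn1 and xrn1 RNAi. RPL4 had 3 reads in WT and 6 in RNAi.

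**Figure D4:**
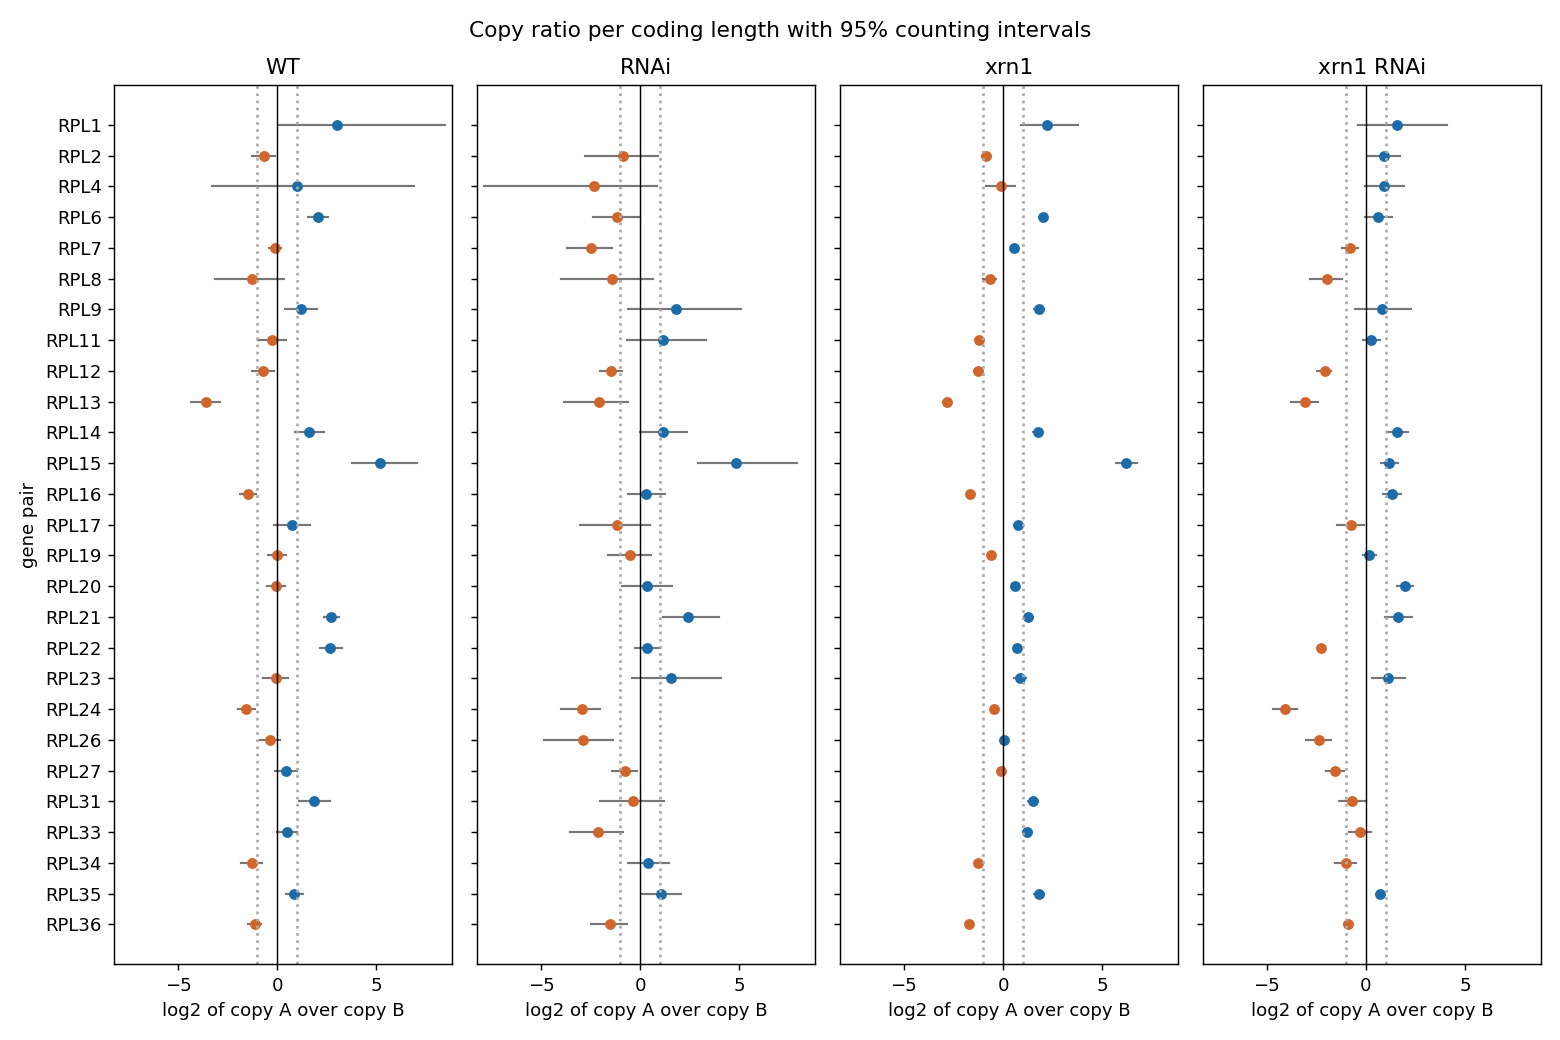
Log2 of the ratio of copy A over copy B per coding length (x axis) for 27 RPL pairs (y axis), in 1 panel per library, with horizontal lines for 95% counting intervals and dotted lines at a 2-fold difference. RPL15 and RPL21 lie to the right and RPL13 to the left in all 4 panels, and RPL22 lies right in WT and left in xrn1 RNAi.

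The third question was whether the balance of the copies differed between libraries. A pair counted as shifted where the ratio of its copy ratios was 2-fold or more from 1 and its exact interval lay apart from 1. In RNAi over WT 11 of 25 pairs shifted, 2 toward A and 9 toward B, beside 56% of other ribosomal protein pairs. With XRN1 deleted, in xrn1 RNAi over xrn1, 16 of 28 shifted, 4 toward A and 12 toward B, beside 62.1%. In xrn1 over WT 4 of 26 shifted, beside 31%, and in xrn1 RNAi over RNAi 8 of 25, beside 32%. Each share was at or below that of the other pairs.

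The largest shifts in RNAi over WT were toward B in RPL6, RPL33 and RPL26. RPL6A had 165 in WT and 3.18 in RNAi while RPL6B had 40 and 6.99, a shift of 8.96-fold (3.73 to 23.0). RPL33A had 89 and 2.22 and RPL33B 63 and 9.53, 6-fold (2.39 to 17.2). RPL26A had 62 and 1.27 and RPL26B 79 and 9.21, 5.64-fold (1.84 to 23.3). Copy A fell further than copy B in each, and in RPL6 and RPL33 the leading copy changed. For RPL6 the interval of the lead of B in RNAi spanned 1 (0.9997 to 5.20), from 10 reads of A and 22 of B.

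In xrn1 RNAi over xrn1 the largest shifts were toward B in RPL15, 32.4-fold (20.5 to 51.8), RPL24, 12.3-fold (8.06 to 19.6), and RPL22, 8.08-fold (7.08 to 9.25). RPL24A fell from 158 to 1.91 while RPL24B fell from 215 to 31.9. RPL16, a pair of intron-bearing genes, shifted the other way, toward A, by 7.75-fold (5.54 to 11.0): RPL16A had 144 and 10.7 and RPL16B 448 and 4.27. In RNAi over WT it shifted toward A by 3.43-fold (1.72 to 6.94), with 74 and 7.94 for A and 204 and 6.35 for B.

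These comparisons of DCR1 and AGO1 share no library, and 25 pairs had enough reads in both. The sign of the shift was the same in 19, with r of 0.59 and rho of 0.65. RPL6, RPL7, RPL16, RPL22, RPL24, RPL26, RPL27, RPL31 and RPL33, 9 pairs, were shifted in both and the same way, each toward B but for RPL16. This was not particular to the pairs described here. Among other ribosomal protein pairs, RPL37, RPL40, RPS0, RPS4 and RPS29 were shifted toward A in both comparisons. RPS6, RPS7, RPS14 and RPS26 were shifted toward B in both comparisons. RPL26 was shifted by 5.64-fold in the first and 5.40-fold (3.53 to 8.53) in the second, and RPL31, for another protein near the exit tunnel, by 4.52-fold (1.31 to 16.4) and 4.58-fold (2.79 to 7.62). RPL7A had 170, 2.86, 348 and 5.95 in WT, RNAi, xrn1 and xrn1 RNAi, RPL7B 184, 15.9, 234 and 10.3, and its shifts were 5.12-fold (2.40 to 12.2) and 2.57-fold (1.90 to 3.50). The copies of RPL7 share 70.1% of their 20-base words.

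**Figure D5:**
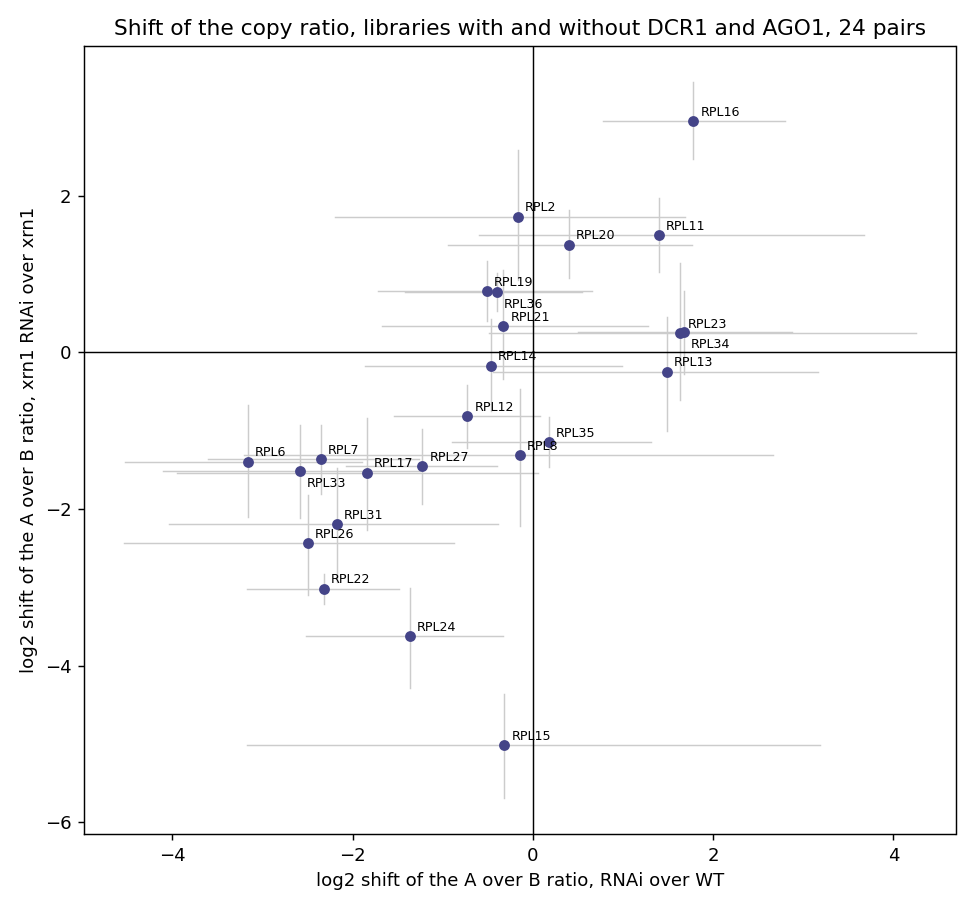
Log2 shift of the A over B ratio in RNAi over WT (x axis) against that in xrn1 RNAi over xrn1 (y axis) for 24 RPL pairs, with lines for 95% counting intervals of each shift. Most pairs lie at the lower left, toward B in both, with RPL16 at 3.43-fold and 7.75-fold toward A at the upper right and RPL15 at 32.4-fold toward B lowest.

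For XRN1 deletion the shifted pairs in xrn1 over WT included RPL22, 3.90-fold toward B (2.69 to 5.81), RPL21, 2.78-fold toward B (2.09 to 3.73), and RPL24, 2.14-fold toward A (1.55 to 2.99). Among the largest in xrn1 RNAi over RNAi were RPL15, 12.7-fold toward B (3.21 to 111), which rests on 2 reads of RPL15B in RNAi, and RPL22, 6.27-fold toward B (3.99 to 9.89). Over 25 pairs with enough reads in both comparisons 14 had the same sign, with r of 0.26 and rho of 0.13. RPL22 was among the 2 pairs shifted in both, each the same way.

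RPL22 shifted in all 4 comparisons, always toward B. The 4 comparisons are built from the same 4 libraries, so these are not 4 separate observations. RPL22A had 218 in WT and 16.2 in RNAi, and 773 in xrn1 and 27.3 in xrn1 RNAi. RPL22B had 34, 12.7, 471 and 134. Copy A made up 86.5% of the pair's reads in WT and 56% in RNAi, and 62.2% in xrn1 and 16.9% in xrn1 RNAi. A was 6.46-fold higher per coding length in WT (4.49 to 9.57), and B was 4.88-fold higher in xrn1 RNAi (4.35 to 5.48). The shift was 5-fold (2.79 to 9.03) in RNAi over WT. With 78 differences between the frames and 19 in the windows above, RPL22 is the most diverged pair, and reads of its copies are the least shared.

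In regions before the start codon, the motif ACCCANACA, N being any base, was searched on both strands within 500 bases, as the core of Rap1 binding sites. It was found for 23 of the 56 copies, 41.1%, and for 183 of 5769 genes with such a region, 3.17%. Both copies held it in 5 pairs, 1 copy in 13 and neither in 10. It was present in both copies of RPL13 and RPL35, with 1 copy higher in all 4 libraries, and of RPL23, RPL26 and RPL34, which were mixed. It was not found as these letters in either copy of RPL15, RPL21, RPL22, RPL24 or RPL36. Of these RPL22 was mixed, and the others had 1 copy higher in all 4 libraries. Whether the motif goes with a constant lead of 1 copy was not tested. Examples are shown with the match in capitals. They are the windows of RPL35A at chrIV:117362-117390 and RPL35B at chrIV:217411-217439, both on the plus strand, and of RPL13B at chrXIII:551520-551548 on the minus strand.
RPL35A: ttaatctcagACCCATACAtatctacacc
RPL35B: tggattcagcACCCAAACAtttgaatttt
RPL13B: tacattacgcACCCATACAtttatagttt

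Other ribosomal protein genes moved in like directions. Each of 10 single-copy RPL genes was lower by 2-fold or more in RNAi over WT and in xrn1 RNAi over xrn1, with medians of -3.98 and -5.48, and all 10 were higher in xrn1 over WT, with a median of 2.23. RPL25, for a protein that binds the signal recognition particle at the exit tunnel, had 568 in WT and 8.26 in RNAi, and 3431 in xrn1 and 9.60 in xrn1 RNAi. RPL3, for a protein near the peptidyl transferase centre, had 302 in WT and 2223 in xrn1. Of 56 RPS genes, of the small subunit, 55 were lower in each of the first 2 comparisons, with medians of -3.35 and -4.45, and 41 were higher in xrn1 over WT. RPS22B had 1253 in WT and 14.0 in RNAi, RPS31 1423 in xrn1 and 8.99 in xrn1 RNAi, and RPS7B 36 in WT and 303 in xrn1. Of 10 other duplicated RPL genes 9 and 10 were lower and 7 higher, and of 5 stalk genes 4 and 5 were lower and 5 higher. Among them RPL41B had 93 in WT and 1.27 in RNAi, and 449 in xrn1 and 2.13 in xrn1 RNAi. RPL40A had 10 in WT and 76.3 in xrn1, and 4.76 in RNAi and 12.4 in xrn1 RNAi. The stalk gene RPP1B had 157 in WT, 6.03 in RNAi and 30.03 in xrn1 RNAi, and RPP1A 71 in WT, 459 in xrn1 and 15.7 in xrn1 RNAi.

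The 8 regulators of these genes did not move as one: 3 were higher and 3 lower in RNAi over WT, and 3 higher and 5 lower in xrn1 RNAi over xrn1. TOR1, a kinase that controls ribosome production, had 317 in WT and 3393 in RNAi. CRF1, a corepressor of ribosomal protein genes, had 23.8 in xrn1 and 249 in xrn1 RNAi. HMO1, a high mobility group protein at their promoters, had 32 in WT and 186 in xrn1. Between xrn1 RNAi and RNAi the other ribosomal lists were mixed as well, with 3 of 10 single-copy RPL genes and 7 of 46 counted RPS genes higher. RPS18A had 1.59 in RNAi and 46.1 in xrn1 RNAi, RPL39 6.03 and 27.0, and TOR1 3393 and 879.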

How the data were processed

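Small RNA was purified from total RNA by size and made into Illumina libraries, per the labels' protocols. The submitters' processing notes name cutadapt and Bowtie. Not given in the sources used here are tool versions, build and annotation, how strand and reads with several matches were handled, and how libraries were scaled. In the deposited WT column each value is a read count. The other 3 deposited columns hold a signal, read counts times a constant for the library. Division by the lowest value above 0 gave whole reads for 100% of values (tolerance 1e-06), and these recovered reads were used. Of the 5798 identifiers 5789 matched RefSeq assembly R64, which gave names, introns, coding lengths and sequences.

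Genes entered a comparison if 1 of its libraries reached the pseudocount of 3.18. Ratios have Clopper-Pearson intervals, and shifts of a copy ratio exact conditional intervals. With 1 library per genotype the comparisons have no test. The additive fit on reads used edgeR 4.0.16 in R 4.3.3, with Benjamini-Hochberg adjustment over 5429 genes, and DESeq2 1.42.0 as an alternative; its code was tested on simulated data. Its p-values rest only on the spread that the additive model leaves between these 4 samples. That spread mixes noise with any difference of an effect between the backgrounds, and replicate spread was not measured. Python 3.11.15 with scipy 1.17.1, pandas 2.3.3 and biopython 1.88 did the rest.

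The members and lists were chosen with earlier results of these data known. Named in full were the 3 highest and 3 lowest copies per comparison, the 5 largest and 3 smallest mean copy ratios, the 3 largest shifts per comparison, XRN1, and the member of each other list with the largest difference; other copies were named after their values were seen. The values of 1 member, and the copy ratio of its pair, are not reported here singly. No molecular identifiers are mentioned, so a read may be a copy of another.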

Additional observations from a re-analysis of the deposited data

How the results depend on the processing

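Each count, median and edgeR result was recomputed under other settings, and 95 of 122 such values stayed within the limits set for them, which for a count is 1.5 times the value given. For the copies named by rank, 52 of 96 log2 differences did, 43 were classed as moved and 1, of RPL12B, as reversed. Those of RPL15B and RPL35B in xrn1 RNAi over xrn1, classed as moved, also changed sign with size factors, to 0.45 and 0.59. The counts and medians that moved follow, and for each the cause was not tested unless the setting itself narrows the count. With size factors, 1 copy was higher in RNAi over WT, 28 were higher and 1 lower in xrn1 over WT, and 14 were lower in xrn1 RNAi over RNAi. Also with size factors the differences of RPL21A in RNAi over WT and of RPL6A in xrn1 RNAi over xrn1 were -3.44 and -4.94, and RPL12B had a log2 difference of 0.80 in RNAi over WT. With each library divided by its sum, 22 were higher and 1 lower in xrn1 over WT, and 1 lower in xrn1 RNAi over RNAi. With a pseudocount 10 times higher the copies' median relative to all genes was -0.77 in RNAi over WT and -1.69 in xrn1 RNAi over xrn1, and 1 copy was higher in xrn1 RNAi over RNAi; with one 10 times lower, 2 were lower there. With a filter at 10 times the pseudocount 4 were higher in xrn1 RNAi over RNAi and the relative median was 1.26, reversed. At 4-fold, 11 copies were higher in xrn1 over WT and 3 in xrn1 RNAi over RNAi, and shifted pairs numbered 7, 6, 0 and 3 in RNAi over WT, xrn1 RNAi over xrn1, xrn1 over WT and xrn1 RNAi over RNAi. Copies 4-fold apart numbered 6, 7, 5 and 6 in WT, RNAi, xrn1 and xrn1 RNAi, and 5 pairs were 2-fold apart in RNAi with at least 50 reads. With a 2-fold difference in each library 4 pairs had the same copy higher. For XRN1 deletion edgeR without a filter and DESeq2 each called 1 copy, beside 45 of 5670 and 186 of 5560 genes in that order.

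Division by gene length with introns and leaving out the least unique pairs were added after seeing the data and moved no count beyond that. No paired analysis was possible because each genotype had 1 library and no replicate number; the additive edgeR fit holds the XRN1 background as a term. Depth limits RPL1 and RPL4 most, with 9 and 3 reads per pair in WT.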

Other observations

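Genes lying next downstream of RPL copies differed from them in RNAi over WT in some cases, named here after their values were seen. HNM1, for a choline transporter, begins 418 bases beyond RPL7A and had 110 in WT and 1940.4 in RNAi, and 300.0 in xrn1 and 2132 in xrn1 RNAi, while RPL7A had 170, 2.86, 348 and 5.95. FCY2, for a purine and cytosine permease, lies 1309 bases beyond RPL34A and had 170, 1059.8, 803 and 4902 in the same order. Distances are from assembly R64, and no annotated gene other than SNR39 and SNR59 overlapped an RPL copy there.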
